A study of Homo sapiens with 20 samples.

Results

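A549 is a cell line from a human lung adenocarcinoma that grows as an epithelial sheet and is widely used to study the epithelial to mesenchymal transition (EMT), in which epithelial cells loosen their junctions and take on a migratory, matrix-producing state. The late transcriptional response of A549 cells to TGF-β was read from 8 of the 20 RNAseq libraries of the series: 4 libraries from cells given 10 ng/mL TGF-β for 6 hours, and 4 from cells left without treatment. The other 12 libraries came from cells given TGF-β at the same concentration for 2 hours, or 0.5 mM extracellular ATP (eATP) for 2 or 6 hours. All groups were the same line, grown in medium with serum. Of 58825 genes in the deposited table, the 17651 with at least 0.1 FPKM (a fragment count scaled to gene length and library size) in 4 or more of these 8 libraries were described. The controls carry no collection time, so time in culture and TGF-β cannot be told apart. Whether the replicate libraries stem from separate cultures is not stated, and the p-values therefore measure the spread between libraries, which may be technical.

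TGF-β binds a pair of serine/threonine kinase receptors, of which the type II receptor activates the type I receptor, and the active complex phosphorylates SMAD2 and SMAD3. These enter the nucleus with SMAD4 and bind short DNA elements beside other factors, among them AP-1. In epithelial cells the pathway is known for slowing proliferation, for inducing matrix, protease inhibitor and cytoskeletal genes, and for raising the transcription factors that repress epithelial genes.

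The total count was 56187614 to 71464725 in the TGF-β 6 h libraries and 65609263 to 74242362 in the control libraries. The summed FPKM of 5 epithelial markers was 1523 to 1739 with TGF-β and 1304 to 1541 in controls, mainly from the keratins KRT8, KRT18 and KRT7. EPCAM lay at 4.48 to 6.00 FPKM with TGF-β and 5.02 to 5.80 FPKM in controls, and CDH1 at 2.14 to 7.64 FPKM with TGF-β and 8.64 to 11.6 FPKM in controls. The summed level of 6 fibroblast markers was 0.371 to 0.445 FPKM with TGF-β and 0.332 to 0.533 FPKM in controls, and 4 of the 6 never reached 0.1 FPKM. Of 4 endothelial markers, 3 never reached that level and KDR had no read. Of 4 immune markers CD3E had no read and only CD68 passed 1 FPKM, so that the sum of 1.90 to 3.39 FPKM with TGF-β and 3.43 to 6.02 FPKM in controls is mainly that gene. The summed level of a pair of globin genes stayed under 1 FPKM in every library. Between 7 and 24 genes per library were 10-fold or more apart from all 3 other libraries of their group. Replicate 1 of TGF-β at 2 hours stood apart: the SD of its log2 deviations from the group mean was 0.586, against 0.268 to 0.373 in the other 19 libraries.

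After 6 hours of TGF-β, 3284 of the 17651 genes (18.6%) were called at an adjusted p under 0.05 by edgeR's quasi-likelihood test, which is the source of every adjusted p given here. Of these, 1667 (9.44%) were higher and 1617 (9.16%) lower than in untreated cells. At least a 2-fold change was seen in 667 of the genes called higher (3.78% of all tested) and 458 of those called lower (2.59%). The balance of the 2 directions depended on the scaling: 50.8% of the called genes were higher in the main test, against 39.5% when library totals alone were used and 40.6% with limma on log2(FPKM + 0.1). Upper quartile scaling gave 47.0% and DESeq2 size factors 52.2%. Replicate 1 of TGF-β at 2 hours enters the shared estimate of the spread, and without it 2073 genes were called higher and 2177 lower. The FPKM values of the 2 groups did not overlap for 1776 genes that were higher (10.1%) and 2796 that were lower (15.8%) with TGF-β, and 2968 genes (16.8%) were both called and free of overlap. The FPKM values do not carry the between-library scaling of the main test. In a bulk library a change in the number of cells that express a gene and a change in its RNA per cell cannot be told apart.

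By kind of gene, the calls took in 2960 of 12964 protein-coding genes (22.8%), 82 of 1043 antisense genes (7.86%), 105 of 846 lincRNAs (12.4%) and 38 of 1218 processed pseudogenes (3.12%).  The median absolute log2(FC) of called genes was 1.23 for genes with a mean under 1 FPKM, 0.67 from 1 to 10 FPKM, 0.50 from 10 to 100 FPKM and 0.48 above 100 FPKM. The median log2(FC) over all tested genes was -0.016.

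**Figure D1:**
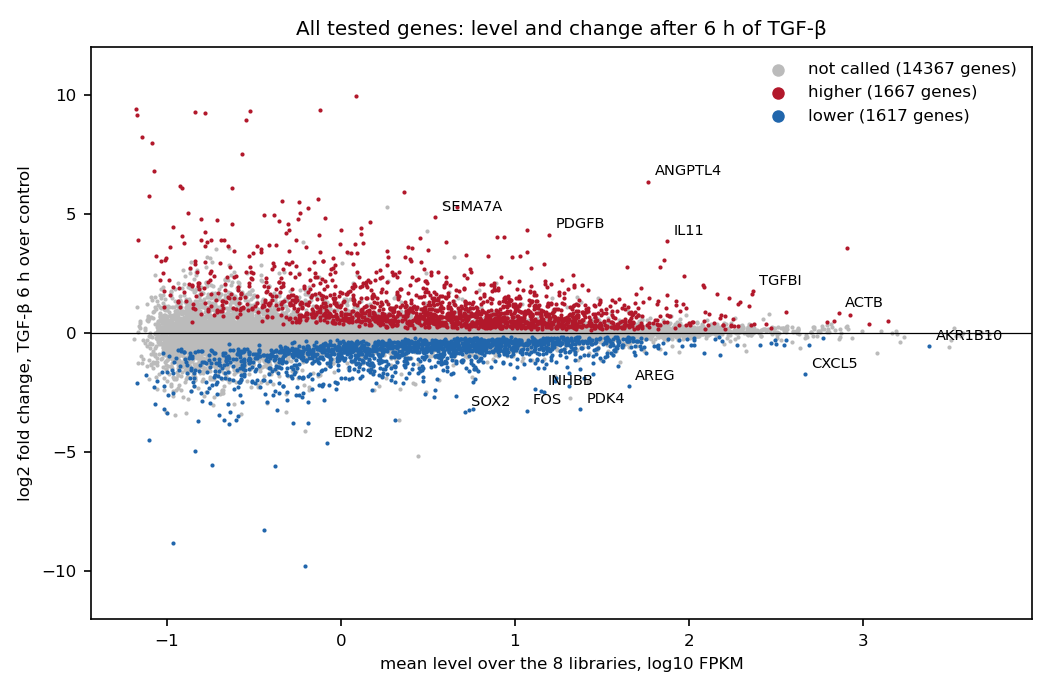
Level (mean FPKM of the 8 libraries, log10 scale) and log2 fold change (TGF-β 6 h over control) of the 17651 tested genes, each a point. Genes called higher (red, 1667) and lower (blue, 1617) were found over the whole range of levels, and ANGPTL4, with a log2(FC) of 6.35, stands out among genes above 10 FPKM.

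The largest rises were taken among called genes whose groups did not overlap and where the mean of one group reached 1 FPKM. The lack of overlap named for these genes was thus a condition of choice and not a result. ANGPTL4, which encodes a secreted inhibitor of lipoprotein lipase, had 122, 115, 125 and 99.8 FPKM in the TGF-β 6 h libraries, against 1.04, 1.65, 1.69 and 1.51 FPKM in the controls, a log2 change of 6.35 (SE 0.28, adjusted p = 9.04e-12), where the change is that of TGF-β 6 h over control. No TGF-β library came near a control. ODAPH, known for its part in enamel mineralization, had 5.34, 3.89, 4.61 and 4.20 FPKM with TGF-β and 0.0208, 0.0397, 0.123 and 0.117 FPKM in controls, a log2 change of 5.92 (SE 0.93, adjusted p = 0.000112). FOXS1, a forkhead transcription factor gene, reached 1.43, 1.37, 2.06 and 0.962 FPKM with TGF-β, against 0.0472, 0.0583, 0.0001 and 0.0001 FPKM in controls, where 0.0001 is the value the table holds for a count of 0. The groups were again far apart, with a log2 change of 5.64 (SE 0.80, adjusted p = 8.69e-05). LCE3D, a cornified envelope gene of the epidermis, stood at 8.02, 9.34, 11.3 and 7.47 FPKM with TGF-β and 0.267, 0.536, 0.135 and 0.0001 FPKM in controls, a log2 change of 5.29 (SE 0.70, adjusted p = 1.52e-05). Its neighbour in the same family, LCE3E, had 1.43, 1.64, 1.77 and 1.28 FPKM with TGF-β and no read in any control library, which makes it at least 109.7-fold higher against a floor of 3 counts over the control group.

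KRT17, a keratin of basal and wounded epithelium, had 1.27, 1.07, 1.35 and 1.37 FPKM with TGF-β and 0.0001, 0.0133, 0.0855 and 0.0286 FPKM in controls, a log2 change of 5.24 (SE 0.80, adjusted p = 8.30e-05). The groups did not overlap, although the size of the change rests on a few control reads: it was 6.36 without control replicate 3. In the same way leaving out 1 control gave a log2(FC) of 6.35 for FOXS1 and 6.03 for LCE3D (replicate 2), and 6.30 for R3HDML (replicate 4). The lowest log2(FC) across the alternatives was 1.13 for KRT17, 1.24 for FOXS1, 3.02 for LCE3D and 1.03 for R3HDML. These alternatives include limma on log2(FPKM + 1). R3HDML, a member of a family of cysteine-rich secretory proteins, had 1.34, 0.807, 1.51 and 0.861 FPKM with TGF-β and 0.0378, 0.0001, 0.0001 and 0.09996 FPKM in controls, a log2 change of 5.04 (SE 0.93, adjusted p = 0.000565). Here too the groups were apart. SEMA7A, a membrane-anchored semaphorin that binds integrins, was tighter: 6.88, 6.41, 6.94 and 6.75 FPKM with TGF-β and 0.206, 0.251, 0.254 and 0.251 FPKM in controls gave a log2 change of 4.86 (SE 0.15, adjusted p = 4.70e-14). The TGF-β libraries lay close together and far above every control. CHRNA9, a nicotinic acetylcholine receptor subunit, had 1.53, 1.70, 1.49 and 1.51 FPKM with TGF-β against 0.0886, 0.0810, 0.0241 and 0.0304 FPKM in controls, a log2 change of 4.82 (SE 0.67, adjusted p = 3.14e-05). WNT7A, a Wnt ligand, had 1.17, 1.03, 1.09 and 1.12 FPKM with TGF-β against 0.0186, 0.0517, 0.0483 and 0.0421 FPKM in controls, a log2 change of 4.79 (SE 0.52, adjusted p = 1.60e-06). AC117378, a row with no gene name, had no read in any control and averaged 2.45 ± 0.891 FPKM with TGF-β (SD, n = 4), but its call (adjusted p = 0.0417) was lost when any 1 of the 8 libraries was left out (adjusted p up to 0.0791).

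Of the 15 genes with the largest rises, 11 had a promoter in the RefSeq table (GRCh38.p14, 250 bases before to 50 after the gene start). The letters of known SMAD elements were searched in them: CAGACA or its complement TGTCTG, and the palindrome GTCTAGAC. TGANTCA, a loose form of the AP-1 element in which N is any base, was searched as well. Of the 11 promoters, 3 held CAGACA (ODAPH, R3HDML and CHRNA9), 1 held TGANTCA (ODAPH) and 1 held GTCTAGAC (R3HDML). The promoters of ODAPH, R3HDML and IL11, a gene outside these 15, are printed because they hold such letters, in capitals, and were chosen for it. Both strands were searched, and no match printed here overlaps another. They lie at chr4:75555816-75556115 on the plus strand (ODAPH), chr20:44336793-44337092 on the plus strand (R3HDML) and chr19:55370414-55370713 on the minus strand (IL11).
ODAPH: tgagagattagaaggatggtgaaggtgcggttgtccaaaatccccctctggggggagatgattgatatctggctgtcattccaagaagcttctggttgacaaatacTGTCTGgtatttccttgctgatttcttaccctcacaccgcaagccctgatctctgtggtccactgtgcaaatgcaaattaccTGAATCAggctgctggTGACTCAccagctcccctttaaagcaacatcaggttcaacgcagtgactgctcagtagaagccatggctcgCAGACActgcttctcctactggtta
R3HDML: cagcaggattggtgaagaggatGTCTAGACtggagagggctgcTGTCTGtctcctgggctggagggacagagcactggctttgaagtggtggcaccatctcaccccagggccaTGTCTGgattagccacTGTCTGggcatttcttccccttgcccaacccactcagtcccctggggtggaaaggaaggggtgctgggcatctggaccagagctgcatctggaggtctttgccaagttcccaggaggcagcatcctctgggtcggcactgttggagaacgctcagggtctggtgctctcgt
IL11: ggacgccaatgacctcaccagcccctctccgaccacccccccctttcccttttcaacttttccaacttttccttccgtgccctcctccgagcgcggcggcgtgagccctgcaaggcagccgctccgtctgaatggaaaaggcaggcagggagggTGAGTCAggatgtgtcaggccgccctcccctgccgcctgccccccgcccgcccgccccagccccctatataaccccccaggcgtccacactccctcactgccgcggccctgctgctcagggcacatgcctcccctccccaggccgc
CAGACA was present in 16.8% of 27305 promoters of this length, TGANTCA in 7.76% and GTCTAGAC in 0.201%. In the promoters of the 10726 tested genes with an entry the shares were 12.1%, 4.80% and 0.158%. Among the promoters of genes called higher, 193 of 1213 (15.9%) held CAGACA, 78 (6.43%) TGANTCA and 3 GTCTAGAC. Among those of genes called lower it was 142 of 1197 (11.9%), 50 (4.18%) and 2. These are matches of letters in a short window, were not tested against each other, and do not show that a factor binds there.

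Among the largest falls by the same rule was that of EDN2, which encodes the vasoactive peptide endothelin-2. It had 0.0803, 0.0540, 0.0001 and 0.0995 FPKM with TGF-β and 2.05, 1.80, 1.06 and 1.56 FPKM in controls, a log2 change of -4.63 (SE 0.48, adjusted p = 8.84e-07). SOX2, a transcription factor of airway progenitors and stem cells, had 1.07, 1.01, 0.733 and 0.763 FPKM with TGF-β, against 9.44, 10.2, 9.32 and 8.62 FPKM in controls, a log2 change of -3.32 (SE 0.18, adjusted p = 2.47e-10). FOS, an AP-1 subunit, had 2.31, 2.03, 1.73 and 2.42 FPKM with TGF-β and 24.1, 19.1, 19.8 and 21.8 FPKM in controls, a log2 change of -3.25 (SE 0.18, adjusted p = 2.89e-10). All 3 genes were far below the control level in every TGF-β library, where the lack of overlap was again a condition of the rule. EHF, an epithelial ETS factor, had 1.25, 0.898, 1.07 and 1.08 FPKM with TGF-β and 10.8, 10.9, 8.43 and 11.5 FPKM in controls, a log2 change of -3.20 (SE 0.20, adjusted p = 1.09e-09). PDK4, a kinase that holds pyruvate dehydrogenase inactive, had 4.95, 3.62, 4.29 and 5.09 FPKM with TGF-β and 44.9, 44.5, 36.8 and 46.0 FPKM in controls, a log2 change of -3.19 (SE 0.21, adjusted p = 1.83e-09). In both cases the highest TGF-β library was far below the lowest control.

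SPRY1, an inhibitor of receptor tyrosine kinase signalling, had 0.116, 0.0923, 0.190 and 0.184 FPKM with TGF-β and 1.04, 1.19, 1.09 and 1.28 FPKM in controls, a log2 change of -2.90 (SE 0.24, adjusted p = 4.11e-08). The groups were again separate. KCNJ2, an inward rectifier potassium channel, TNFSF15, a TNF family ligand, RNF43, a ubiquitin ligase that removes Wnt receptors, and C9orf152 fell by 2.81, 2.70, 2.63 and 3.79 on the log2 scale. Their SEs were 0.18, 0.30, 0.18 and 0.56, with adjusted p-values of 1.22e-09, 2.32e-06, 4.82e-09 and 6.20e-05. BMS1P7, a pseudogene with 1.55, 1.51, 0.669 and 1.29 FPKM in controls, had no read with TGF-β and was at least 126-fold lower against a floor of 3 counts over the TGF-β group. Its call (adjusted p = 0.0421) was lost without any 1 of the 8 libraries (adjusted p up to 0.0849), and reads of a pseudogene can belong to its parent gene.

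**Figure D2:**
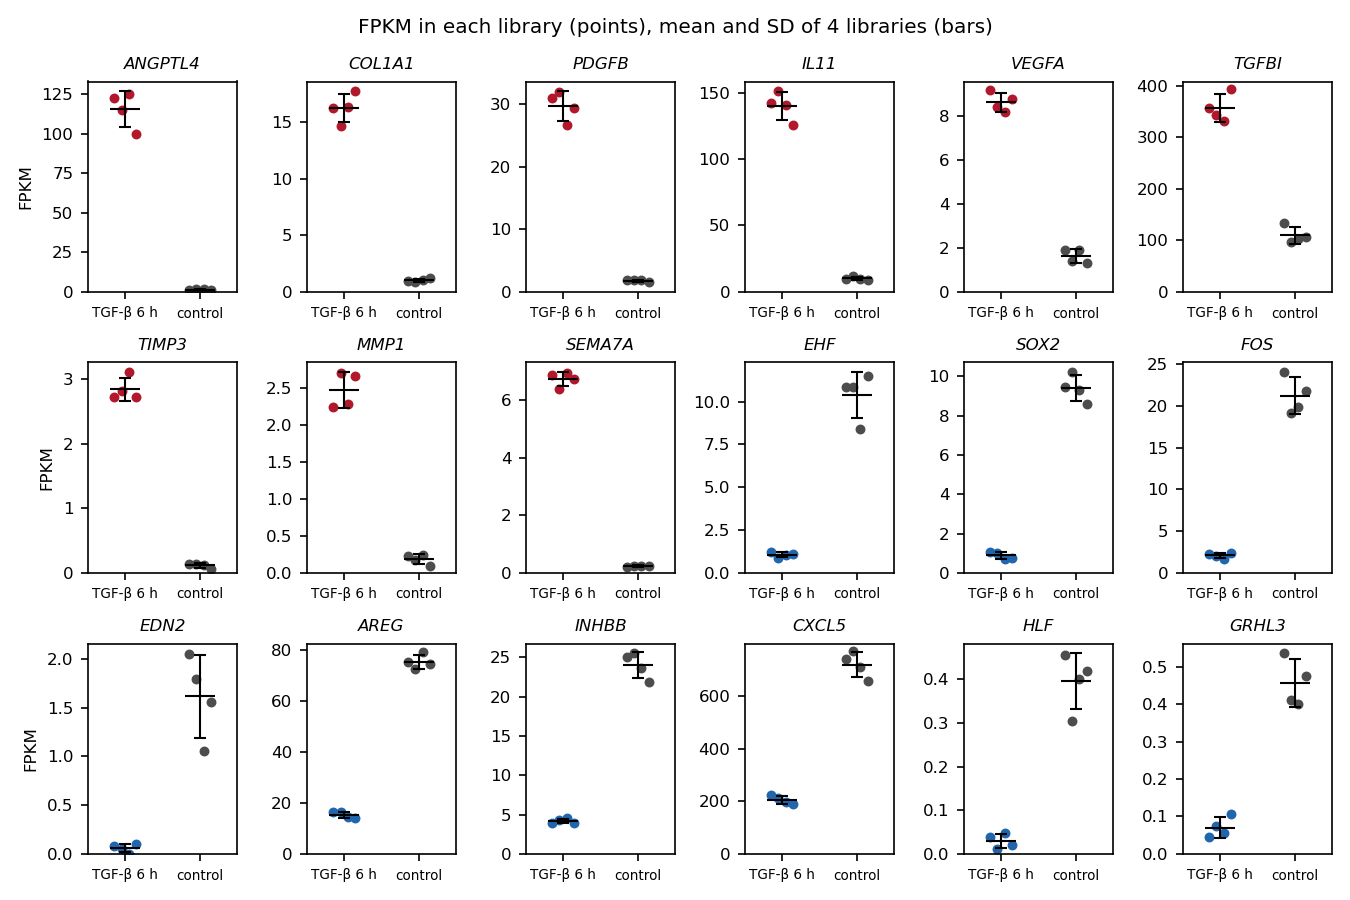
FPKM of 18 named genes in each TGF-β 6 h library (left, red where higher and blue where lower) and each control library (right, dark grey), with the mean and SD of 4 libraries as bars and each axis starting at 0. For every gene shown the 2 groups do not overlap. ANGPTL4 lies between 99.8 and 125 FPKM with TGF-β and FOS between 1.73 and 2.42 FPKM.

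Among the genes with the greatest gains by absolute level, TGFBI, a secreted matrix protein, had 358, 343, 332 and 394 FPKM with TGF-β and 133, 97.0, 103 and 106 FPKM in controls, a log2 change of 1.77 (SE 0.13, adjusted p = 6.55e-09). ACTB, the cytoplasmic beta-actin gene, had 1111, 821, 797 and 921 FPKM with TGF-β and 573, 509.8, 597 and 472 FPKM in controls, a log2 change of 0.83 (SE 0.13, adjusted p = 0.000154). Genes ranked by level were also chosen for groups that did not overlap. The lowest TGF-β library was therefore above the highest control for both genes by choice. IER3, an early response gene that affects cell survival, IGFBP4, which binds insulin-like growth factors, and S100A10, the partner of annexin A2, rose as well, to 343 ± 33.7, 1047 ± 109 and 783 ± 64.2 FPKM with TGF-β, against 116 ± 4.91, 646 ± 71.4 and 572 ± 49.0 FPKM in controls (SD, n = 4 each). The adjusted p-values were 1.04e-09, 0.000961 and 0.00844.

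The greatest losses by absolute level included several genes that A549 expresses at very high levels. AKR1B10, an aldo-keto reductase, had 1936, 1918, 1904 and 1856 FPKM with TGF-β and 2888, 2838, 3085 and 2807 FPKM in controls, a log2 change of -0.54 (SE 0.05, adjusted p = 3.53e-07). CXCL5, a chemokine that attracts neutrophils, had 223, 214, 197 and 190.2 FPKM with TGF-β and 739, 771, 711 and 656 FPKM in controls, a log2 change of -1.73 (SE 0.10, adjusted p = 3.06e-10). The groups were separate for both genes by the same choice. CEACAM6, an adhesion molecule of carcinoma cells, fell to 393 ± 28.6 FPKM with TGF-β against 589.6 ± 29.3 FPKM in controls. ANXA1, a phospholipid-binding protein, fell to 262 ± 12.3 FPKM against 374 ± 17.2 FPKM, and TM4SF1, a tetraspanin-like membrane protein, to 101 ± 8.44 FPKM against 202 ± 17.4 FPKM (SD, n = 4 each). AGR2, an endoplasmic reticulum protein of secretory epithelia, had 208 ± 19.7 FPKM with TGF-β and 305 ± 37.99 FPKM in controls. The adjusted p-values of these 4 genes were 0.000153, 5.91e-06, 8.59e-05 and 0.00588.

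Genes were also read by lists of pathways and cell functions, whose members were chosen with earlier results of these data known. The shares over all genes given beside the first list are the background for every later list. Of protein-coding genes 22.8% were called in either direction. Of the 3284 called genes 2968 were free of overlap between groups. Lack of overlap named for a called list member is therefore close to given by the call and adds little to it. Of 22 tested feedback genes and SMAD targets of the TGF-β pathway, 15 were higher and 3 lower, with a median log2(FC) of 1.14, against 9.44% and 9.16% called in each direction and a median of -0.016 over all genes tested. PMEPA1 and LDLRAD4 encode related membrane proteins that bind receptor SMADs and limit signalling. PMEPA1 had 197, 197, 184 and 191 FPKM with TGF-β and 49.5, 51.4, 47.7 and 50.8 FPKM in controls, a log2 change of 2.01 (SE 0.05, adjusted p = 1.19e-14). LDLRAD4 was lower in level but changed more, with 0.974, 0.847, 0.863 and 1.01 FPKM with TGF-β and 0.196, 0.131, 0.0602 and 0.0970 FPKM in controls, a log2 change of 2.99 (SE 0.27, adjusted p = 1.20e-07). Neither gene overlapped between groups. CCN2, which encodes the connective tissue growth factor, had 129.8, 134, 122 and 126 FPKM with TGF-β and 16.0, 15.7, 15.7 and 17.3 FPKM in controls, a log2 change of 3.05 (SE 0.11, adjusted p = 3.99e-13). JUNB, an AP-1 subunit, had 151, 159, 171 and 148 FPKM with TGF-β and 29.5, 28.2, 34.7 and 31.8 FPKM in controls, a log2 change of 2.41 (SE 0.14, adjusted p = 3.16e-10). SPHK1, the kinase that makes sphingosine 1-phosphate, rose by 3.02 on the log2 scale (SE 0.24, adjusted p = 3.30e-08).

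SMAD7, the inhibitory SMAD, and SKIL, a corepressor of SMAD complexes, are named although they were chosen after their values were seen. SMAD7 had 9.93, 10.0, 9.44 and 10.7 FPKM with TGF-β and 3.09, 3.88, 3.07 and 3.33 FPKM in controls, a log2 change of 1.65 (SE 0.11, adjusted p = 2.04e-09). SKIL averaged 15.6 ± 3.53 FPKM with TGF-β and 5.91 ± 2.15 FPKM in controls (SD, n = 4 each), a log2 change of 1.47 (SE 0.25, adjusted p = 0.000261). All 4 TGF-β libraries were above all 4 controls for both.

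Of 21 ligands, receptors and carriers of the TGF-β superfamily, 8 were higher and 4 lower. The activin subunits went opposite ways: INHBA, which encodes the beta A subunit, rose to 0.305 ± 0.0444 FPKM with TGF-β against 0.0112 ± 0.00806 FPKM in controls, a log2 change of 4.79 (SE 0.72, adjusted p = 7.20e-05), while INHBB, for the beta B subunit, had 3.99, 4.34, 4.54 and 3.97 FPKM with TGF-β and 25.1, 25.5, 23.7 and 21.9 FPKM in controls, a log2 change of -2.45 (SE 0.07, adjusted p = 4.16e-14). INHBB stayed the higher of the 2 by FPKM in both groups. FST, the activin antagonist follistatin, rose by 1.54 (SE 0.25, adjusted p = 0.000181). GDF15, a stress-induced member of the superfamily, fell to 4.35, 4.61, 4.71 and 3.70 FPKM with TGF-β, against 26.5, 23.6, 26.3 and 23.5 FPKM in controls, a log2 change of -2.45 (SE 0.12, adjusted p = 3.19e-11). The 4 libraries of each group were close to each other in both INHBB and GDF15, with no overlap. TGFBR3, the coreceptor betaglycan, had 0.434 ± 0.0337 FPKM with TGF-β and 1.67 ± 0.260 FPKM in controls (SD, n = 4 each), a log2 change of -1.87 (SE 0.23, adjusted p = 8.25e-06). The type II receptor gene TGFBR2, chosen after its values were seen, had 24.2, 23.1, 19.9 and 26.0 FPKM with TGF-β and 47.3, 45.3, 37.9 and 46.3 FPKM in controls, a log2 change of -0.86 (SE 0.12, adjusted p = 4.48e-05).

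Among 19 BMP ligands, antagonists and ID genes, 5 were higher and 3 lower. The ligands BMP2 and BMP6, the receptor BMPR2 and the antagonist NOG (noggin) rose together. NOG had 2.23, 2.61, 2.32 and 1.80 FPKM with TGF-β and 0.0789, 0.174, 0.277 and 0.368 FPKM in controls, a log2 change of 3.37 (SE 0.39, adjusted p = 3.33e-06). BMP2, BMP6 and BMPR2 rose by 1.73, 1.84 and 1.82 on the log2 scale, with SEs of 0.11, 0.09 and 0.19 and adjusted p-values of 1.03e-09, 1.10e-10 and 7.02e-07. The ID genes encode inhibitors of basic helix-loop-helix factors and are direct BMP targets. ID2 fell to 7.39 ± 0.850 FPKM with TGF-β against 18.6 ± 1.13 FPKM in controls, and ID4 to 0.679 ± 0.0597 FPKM against 1.77 ± 0.263 FPKM (SD, n = 4 each). Their adjusted p-values were 4.28e-07 and 1.80e-06. ID1, the most abundant of the family here, had 118, 136, 124 and 113 FPKM with TGF-β and 102, 105, 143 and 122 FPKM in controls and was not called (adjusted p = 0.671).

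**Figure D3:**
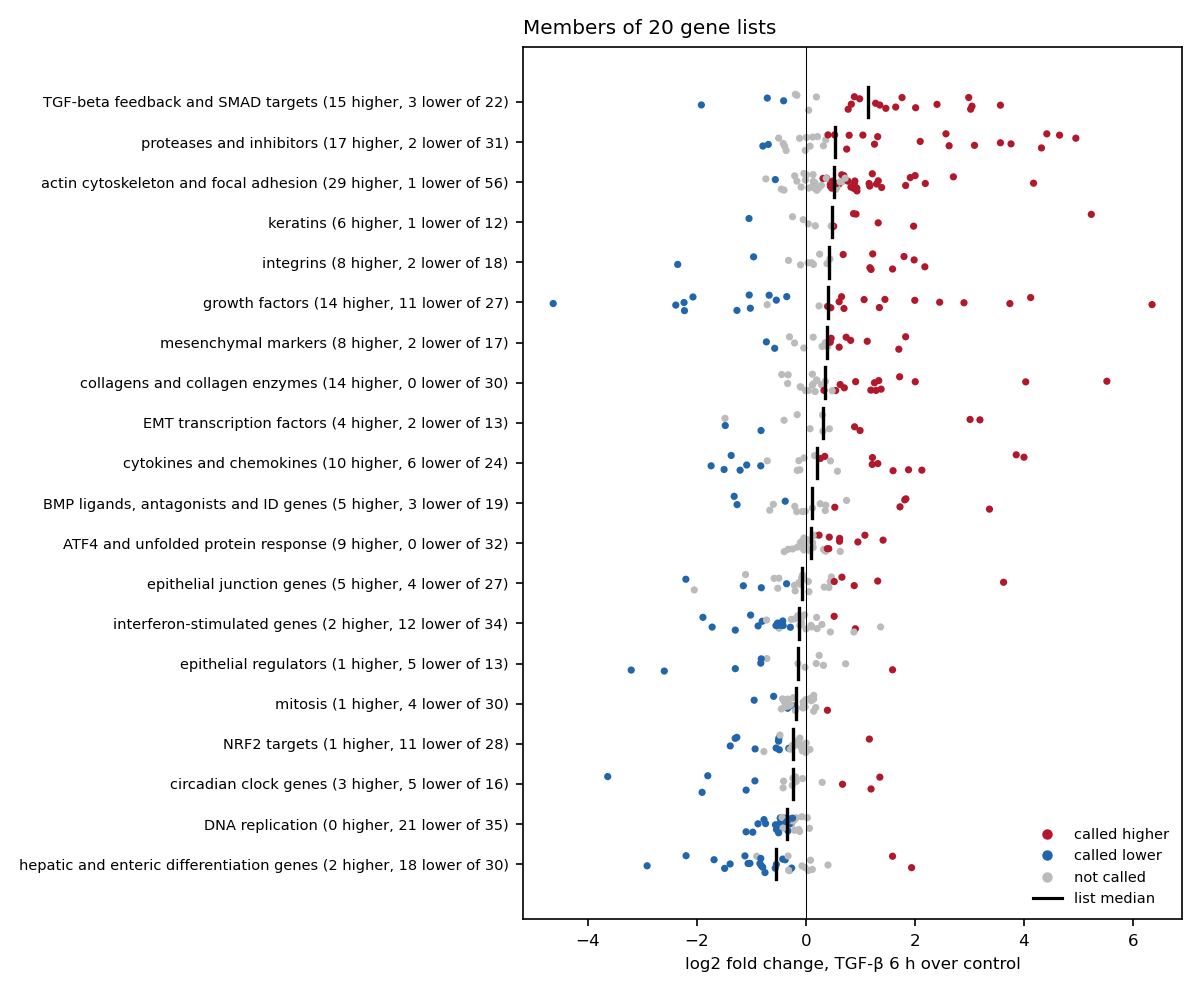
Log2 fold change (TGF-β 6 h over control) of every tested member of 20 gene lists, ordered by the list median (black bar). Red members were called higher, blue lower and grey neither. Medians range from 1.14 for TGF-β feedback genes and SMAD targets at the top to -0.55 for hepatic and enteric differentiation genes at the bottom.

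Of 13 EMT transcription factors tested, 4 were higher and 2 lower. None was lower without control replicate 4, TGF-β replicate 1 or TGF-β replicate 3, and 1 was lower without control replicate 1, 2 or 3 or TGF-β replicate 2. SNAI1 and SNAI2, the zinc finger repressors of E-cadherin, were both induced from a low level. SNAI1 had 4.54, 4.06, 3.73 and 4.49 FPKM with TGF-β and 0.444, 0.586, 0.320 and 0.571 FPKM in controls, a log2 change of 3.19 (SE 0.26, adjusted p = 3.25e-08). SNAI2 had 1.54, 1.45, 1.49 and 1.13 FPKM with TGF-β and 0.323, 0.143, 0.153 and 0.0970 FPKM in controls, a log2 change of 3.01 (SE 0.34, adjusted p = 2.49e-06). The groups did not overlap. SOX4, a factor needed for EMT in several epithelia, and ETS1 rose by 1.00 and 0.90 (SE 0.06 and 0.15, adjusted p = 3.10e-10 and 0.000211). ZEB1, another repressor of E-cadherin, averaged 2.70 ± 0.401 FPKM with TGF-β and 2.10 ± 0.494 FPKM in controls and was not called (adjusted p = 0.295).

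Of 13 regulators of the epithelial state, 1 was higher and 5 lower. Besides EHF, the fall took in GRHL3, a grainyhead factor of surface epithelia, ELF3, an epithelial ETS factor, and FOXA2, a pioneer factor of endoderm. GRHL3 had 0.0448, 0.0744, 0.0550 and 0.107 FPKM with TGF-β and 0.537, 0.411, 0.400 and 0.475 FPKM in controls, a log2 change of -2.59 (SE 0.33, adjusted p = 1.07e-05). ELF3 had 8.07, 8.65, 8.92 and 8.27 FPKM with TGF-β and 22.1, 20.2, 23.1 and 21.6 FPKM in controls, a log2 change of -1.29 (SE 0.08, adjusted p = 1.56e-09). FOXA2 fell by 0.82 on the log2 scale (SE 0.09, adjusted p = 1.98e-06). All 3 were free of overlap.

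The junction genes did not move as 1 group: of 27 tested, 5 were higher and 4 lower, and without replicate 1 of TGF-β at 2 hours 8 and 5. JUP, which encodes plakoglobin of desmosomes and adherens junctions, had 67.5, 76.2, 77.3 and 84.4 FPKM with TGF-β and 31.5, 26.6, 35.5 and 34.4 FPKM in controls, a log2 change of 1.32 (SE 0.12, adjusted p = 1.37e-07). PKP2, a desmosomal plaque gene, had 0.846, 0.812, 0.713 and 0.819 FPKM with TGF-β and 1.89, 1.71, 1.73 and 2.09 FPKM in controls, a log2 change of -1.14 (SE 0.17, adjusted p = 5.08e-05). TJP3, a tight junction scaffold, fell by 2.20 and PARD6B, a polarity gene, by 0.81 on the log2 scale (SE 0.24 and 0.13, adjusted p = 1.62e-06 and 0.000113). CDH1, the E-cadherin gene, had 6.12, 2.62, 2.14 and 7.64 FPKM with TGF-β and 11.6, 10.2, 8.64 and 11.1 FPKM in controls. Every TGF-β library was below every control, but the libraries of TGF-β spread widely and the gene was not called (log2(FC) -1.10, SE 0.45, adjusted p = 0.103). It was called without TGF-β 6 h replicate 4 (adjusted p = 0.0474) and without replicate 1 of TGF-β at 2 hours (adjusted p = 0.0252). CDH1 was chosen after its values were seen. CDH2, the N-cadherin gene, had 24.1, 22.6, 27.4 and 27.2 FPKM with TGF-β and 16.8, 16.3, 13.6 and 16.8 FPKM in controls, a log2 change of 0.74 (SE 0.17, adjusted p = 0.00426).

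Keratins rose more often than they fell, with 6 higher and 1 lower of 12. KRT80 had 96.7, 92.9, 87.9 and 99.6 FPKM with TGF-β and 34.6, 46.0, 30.1 and 46.7 FPKM in controls, a log2 change of 1.33 (SE 0.18, adjusted p = 1.98e-05), and KRT7 averaged 460.1 ± 49.5 FPKM with TGF-β and 263 ± 32.0 FPKM in controls (SD, n = 4 each, adjusted p = 0.000567). The simple epithelial pair KRT8 and KRT18 was not called, with 392 ± 30.8 and 761 ± 32.9 FPKM with TGF-β, against 397 ± 21.3 and 705 ± 61.3 FPKM in controls (adjusted p = 0.882 and 0.503). Of 17 mesenchymal markers, 8 were higher and 2 lower. VIM, which encodes vimentin, had 295, 324, 295 and 275 FPKM with TGF-β and 134, 135, 153 and 149 FPKM in controls, a log2 change of 1.13 (SE 0.11, adjusted p = 2.60e-07). TAGLN, an actin-binding protein of smooth muscle, had 8.28, 8.29, 8.18 and 6.79 FPKM with TGF-β and 2.62, 2.02, 2.58 and 2.04 FPKM in controls, a log2 change of 1.83 (SE 0.16, adjusted p = 1.15e-07). Both were separate from the controls in every library. FN1, the fibronectin gene, was not called, with 22.3, 21.5, 17.9 and 28.6 FPKM with TGF-β and 20.6, 17.0, 12.9 and 21.4 FPKM in controls (adjusted p = 0.235).

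Collagens and their modifying enzymes moved in 1 direction among the calls, with 14 of 30 higher and none lower. In the alternatives tried, 10 to 16 were higher and 0 to 1 lower. COL1A1, the main chain of fibrillar collagen I, had 16.3, 14.7, 16.4 and 17.8 FPKM with TGF-β and 0.938, 0.915, 1.06 and 1.23 FPKM in controls, a log2 change of 4.03 (SE 0.12, adjusted p = 3.95e-14). COL4A1, of basement membrane collagen IV, had 35.3, 32.6, 31.2 and 39.1 FPKM with TGF-β and 9.62, 9.01, 7.69 and 9.64 FPKM in controls, a log2 change of 2.01 (SE 0.20, adjusted p = 3.80e-07). Neither gene overlapped. COL22A1, COL5A1 and COL7A1 rose by 5.52, 1.72 and 1.34, and P4HA3, a subunit of the prolyl hydroxylase that stabilizes collagen, by 1.38 on the log2 scale. Their SEs were 0.45, 0.11, 0.10 and 0.19, and their adjusted p-values 4.43e-08, 2.16e-09, 9.24e-09 and 2.57e-05. The size of the rise of COL22A1 is uncertain, as its log2(FC) ran from 0.90 to 6.10 across the alternatives.

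Among 28 other matrix and basement membrane genes, 8 were higher and 5 lower. LAMB3, a chain of the epithelial laminin found at invasive fronts, rose by 1.37 (SE 0.09, adjusted p = 4.58e-09), while LAMC1, shared by most laminins, was not called at 44.6 ± 5.83 FPKM with TGF-β and 38.1 ± 5.13 FPKM in controls (adjusted p = 0.190). THBS1, which encodes thrombospondin 1, an activator of latent TGF-β, had 43.0, 39.0, 33.5 and 46.2 FPKM with TGF-β and 12.9, 11.5, 10.1 and 13.2 FPKM in controls, a log2 change of 1.83 (SE 0.15, adjusted p = 4.94e-08). The lowest TGF-β library was well above the highest control.

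Of 31 proteases and inhibitors, 17 were higher and 2 lower, and without replicate 1 of TGF-β at 2 hours 18 and 4. TIMP3, a matrix-bound metalloproteinase inhibitor, had 2.72, 2.82, 3.11 and 2.73 FPKM with TGF-β and 0.145, 0.140, 0.118 and 0.0620 FPKM in controls, a log2 change of 4.65 (SE 0.29, adjusted p = 1.21e-09). ADAM19, a membrane metalloproteinase that sheds growth factors, had 21.3, 21.3, 20.9 and 26.0 FPKM with TGF-β and 0.894, 2.10, 0.712 and 0.982 FPKM in controls, a log2 change of 4.32 (SE 0.55, adjusted p = 9.90e-06). The groups were far apart. Secreted collagenases and stromelysins rose from low levels: MMP1 had 2.25, 2.71, 2.29 and 2.67 FPKM with TGF-β and 0.232, 0.181, 0.243 and 0.0959 FPKM in controls, a log2 change of 3.76 (SE 0.27, adjusted p = 9.09e-09). MMP3 averaged 2.49 ± 0.324 FPKM and the gelatinase MMP9 0.704 ± 0.140 FPKM with TGF-β, against 0.121 ± 0.112 and 0.0220 ± 0.0260 FPKM in controls (SD, n = 4 each). Their log2(FC) of 4.42 and 4.95 was 5.14 and 5.73 without control replicate 4. The lowest values across the alternatives were 1.64 for MMP3 and 0.73 for MMP9. MMP2 and MMP10, chosen after their values were seen, rose by 2.63 and 2.57 (SE 0.19 and 0.16, adjusted p = 9.96e-09 and 9.22e-10).

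Integrins are the receptors that join cells to the matrix, and some activate latent TGF-β. Of 18 tested, 8 were higher and 2 lower. ITGB6, the beta chain of an epithelial receptor that activates TGF-β, had 1.597, 2.00, 1.85 and 2.15 FPKM with TGF-β and 0.459, 0.629, 0.519 and 0.399 FPKM in controls, a log2 change of 1.99 (SE 0.14, adjusted p = 8.53e-09). ITGA5, of the fibronectin receptor, had 17.3, 18.0, 14.7 and 18.6 FPKM with TGF-β and 5.82, 4.79, 4.75 and 5.21 FPKM in controls, a log2 change of 1.80 (SE 0.09, adjusted p = 3.59e-11). ITGB3 rose by 2.18 (SE 0.36, adjusted p = 0.000204). ITGB8, whose product also activates latent TGF-β, went the other way, with 0.0701, 0.103, 0.0215 and 0.113 FPKM with TGF-β and 0.453, 0.377, 0.372 and 0.449 FPKM in controls, a log2 change of -2.35 (SE 0.35, adjusted p = 5.58e-05). None of these 4 genes overlapped between groups. ITGB1, the common beta chain and the most abundant integrin here, averaged 434 ± 66.3 FPKM with TGF-β and 412 ± 28.0 FPKM in controls and was not called (adjusted p = 0.577).

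Of 56 genes of the actin cytoskeleton and focal adhesions, 29 were higher and 1 lower, with a median log2(FC) of 0.52. Over all genes tested 9.44% were higher and 9.16% lower. CNN1, the smooth muscle calponin, had 0.899, 0.973, 0.886 and 0.896 FPKM with TGF-β and 0.101, 0.0506, 0.0001 and 0.0506 FPKM in controls, a log2 change of 4.18 (SE 0.88, adjusted p = 0.00194). TNS1, an adaptor of focal adhesions, had 1.49, 0.717, 1.16 and 1.16 FPKM with TGF-β and 0.190, 0.192, 0.146 and 0.196 FPKM in controls, a log2 change of 2.71 (SE 0.24, adjusted p = 1.33e-07). DAAM1, a formin that builds actin filaments, had 5.05, 4.78, 4.41 and 5.65 FPKM with TGF-β and 1.25, 1.07, 0.911 and 1.31 FPKM in controls, a log2 change of 2.19 (SE 0.13, adjusted p = 6.05e-10). Each TGF-β library was above each control for all 3. RND1, a small GTPase that loosens adhesion, had 34.1 ± 4.54 FPKM with TGF-β and 9.46 ± 0.467 FPKM in controls (SD, n = 4 each), a log2 change of 1.92 (SE 0.16, adjusted p = 3.63e-08). RHOA, a main switch of stress fibre assembly, averaged 195 ± 17.2 FPKM with TGF-β and 197 ± 21.6 FPKM in controls and was not called (adjusted p = 0.781). Of 20 targets of YAP and TEAD, 5 were higher and 4 lower. CCN1 rose by 1.47 and F3, which encodes tissue factor, by 2.10 (SE 0.12 and 0.12, adjusted p = 5.15e-08 and 3.06e-10).

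Cytokines and chemokines were split, with 10 higher and 6 lower of 24. IL11, a cytokine of the IL-6 family linked to fibrosis and the gene with a TGANTCA match in the promoter printed beside those of the largest rises, had 142, 151, 141 and 126 FPKM with TGF-β and 9.58, 11.7, 10.00 and 9.15 FPKM in controls, a log2 change of 3.86 (SE 0.11, adjusted p = 3.95e-14). IL1A had 5.76, 5.33, 4.80 and 5.48 FPKM with TGF-β and 0.377, 0.420, 0.278 and 0.310 FPKM in controls, a log2 change of 4.0 (SE 0.26, adjusted p = 1.78e-09). No control reached a TGF-β library in either gene. IL6 and CSF2, which encodes GM-CSF, rose by 2.13 and 1.89 (SE 0.21 and 0.18, adjusted p = 3.74e-07 and 4.17e-07). Among the chemokines that attract neutrophils, CXCL2 had 12.96, 11.1, 12.9 and 10.8 FPKM with TGF-β and 33.8, 34.8, 37.8 and 34.7 FPKM in controls, a log2 change of -1.50 (SE 0.12, adjusted p = 3.27e-08). CXCL3 and CXCL1 fell with it and with CXCL5, by 1.08 and 0.82 (SE 0.23 and 0.10, adjusted p = 0.00201 and 4.01e-06), whereas CXCL8, which encodes IL-8, rose by 0.35 (SE 0.09, adjusted p = 0.0110, but 0.0503 without control replicate 4). CXCL1 and CXCL8 were chosen after their values were seen.

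Of 27 growth factor genes, 25 were called, 14 higher and 11 lower, beside 18.6% called in either direction over all genes tested. As for the other lists, the members were chosen with earlier results of these data known. PDGFB, a mitogen for mesenchymal cells, had 31.0, 32.0, 26.7 and 29.3 FPKM with TGF-β and 1.85, 1.89, 1.90 and 1.51 FPKM in controls, a log2 change of 4.12 (SE 0.10, adjusted p = 1.07e-14). VEGFA, the main angiogenic factor, had 9.16, 8.37, 8.16 and 8.74 FPKM with TGF-β and 1.92, 1.40, 1.92 and 1.31 FPKM in controls, a log2 change of 2.46 (SE 0.14, adjusted p = 2.79e-10). The ligands of the EGF receptor, chosen after their values were seen, split. AREG, for amphiregulin, had 16.2, 16.3, 14.6 and 14.1 FPKM with TGF-β and 74.96, 72.4, 79.1 and 74.4 FPKM in controls, a log2 change of -2.23 (SE 0.08, adjusted p = 3.44e-13), and EREG, for epiregulin, fell by 2.22 (SE 0.14, adjusted p = 2.01e-09). HBEGF, for the heparin-binding ligand, rose to 6.88, 6.41, 6.88 and 6.68 FPKM with TGF-β, against 1.69, 2.02, 1.24 and 2.09 FPKM in controls, a log2 change of 2.00 (SE 0.15, adjusted p = 1.87e-08). The groups did not overlap for any of these growth factors. ERBB3, a receptor of the same family for neuregulins, fell by 1.62 (SE 0.13, adjusted p = 3.70e-08). DUSP4, a nuclear phosphatase that ends ERK signalling, had 20.2, 19.9, 17.6 and 19.3 FPKM with TGF-β and 48.4, 45.7, 41.5 and 44.2 FPKM in controls, a log2 change of -1.16 (SE 0.06, adjusted p = 1.38e-10).

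Of 33 Wnt ligands and feedback genes, 9 were higher and 8 lower, and of 21 Notch and Hedgehog genes 6 were higher and 2 lower. WNT9A rose by 1.86 and the feedback inhibitor NKD1 by 1.66 (SE 0.14 and 0.22, adjusted p = 9.24e-09 and 1.58e-05), opposite in sign to RNF43. The Notch ligand JAG1 had 24.2, 24.3, 21.3 and 25.0 FPKM with TGF-β and 11.6, 11.4, 9.25 and 10.8 FPKM in controls, a log2 change of 1.21 (SE 0.11, adjusted p = 1.78e-07). HEY1, a Notch target, rose by 2.32 and the receptor NOTCH3 fell by 1.35 (SE 0.30 and 0.18, adjusted p = 1.31e-05 and 1.30e-05). Of 24 AP-1 and immediate-early genes, 5 were higher and 4 lower, and the subunits moved apart: JUN had 57.6, 59.8, 54.1 and 56 FPKM with TGF-β and 22.1, 22.4, 21.8 and 23.5 FPKM in controls, a log2 change of 1.41 (SE 0.08, adjusted p = 2.47e-10), beside the rise of JUNB and the fall of FOS.

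DNA replication genes were called in 1 direction. Of 35 tested, 21 were lower (60.0%) and none higher, with a median log2(FC) of -0.35. Across the alternatives 18 to 26 were lower and none higher. ORC1, a subunit of the origin recognition complex, had 7.13, 6.43, 5.11 and 6.84 FPKM with TGF-β and 15.3, 14.6, 12.9 and 14.2 FPKM in controls, a log2 change of -1.09 (SE 0.09, adjusted p = 6.07e-08). MCM2, of the replicative helicase, had 10.1, 9.32, 10.1 and 10.2 FPKM with TGF-β and 21.3, 19.3, 17.6 and 18.1 FPKM in controls, a log2 change of -0.87 (SE 0.09, adjusted p = 4.13e-07). MCM10, the clamp loader subunit RFC3 and the licensing factor CDC6 fell by 0.97, 0.77 and 0.74, with SEs of 0.15, 0.07 and 0.09 and adjusted p-values of 8.32e-05, 1.33e-07 and 1.13e-05. PCNA, the sliding clamp, chosen after its values were seen, had 246, 291, 271 and 291 FPKM with TGF-β and 348, 345, 373 and 347 FPKM in controls, a log2 change of -0.30 (SE 0.08, adjusted p = 0.00911). None of these overlapped between groups.

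Of 30 mitosis genes, 1 was higher and 4 lower, and 12 were lower without replicate 1 of TGF-β at 2 hours. The groups did not overlap for 12 that were lower and 1 that was higher, beside 15.8% lower and 10.1% higher over all genes tested. CCNB1, the mitotic cyclin, averaged 91.4 ± 5.54 FPKM with TGF-β and 99.3 ± 7.002 FPKM in controls and was not called, nor was TOP2A at 112 ± 9.44 and 121 ± 12.01 FPKM (adjusted p = 0.700 and 0.929). Among 24 genes of cell cycle entry, 5 were higher and 7 lower. CDKN1A, which encodes the cyclin-dependent kinase inhibitor p21 and is a known SMAD target, had 68.0, 71.0, 66.5 and 67.8 FPKM with TGF-β and 28.9, 28.0, 33.1 and 29.8 FPKM in controls, a log2 change of 1.26 (SE 0.08, adjusted p = 1.23e-09). E2F2 had 0.778, 0.681, 0.724 and 0.708 FPKM with TGF-β and 2.70, 2.56, 2.71 and 2.98 FPKM in controls, a log2 change of -1.85 (SE 0.12, adjusted p = 1.27e-09), and the S phase cyclin CCNE2 fell by 1.03 (SE 0.23, adjusted p = 0.00319).

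A549 also expresses genes of liver and gut epithelium. Of 30 tested, 18 were lower (60.0%) and 2 higher, with a median log2(FC) of -0.55. FGA, a fibrinogen chain, had 9.89, 9.59, 8.49 and 9.82 FPKM with TGF-β and 32.7, 30.8, 32.1 and 31.3 FPKM in controls, a log2 change of -1.68 (SE 0.06, adjusted p = 3.44e-13). CPS1, the first enzyme of the urea cycle, had 7.30, 6.93, 7.04 and 8.71 FPKM with TGF-β and 23.3, 21.9, 18.6 and 24.2 FPKM in controls, a log2 change of -1.49 (SE 0.13, adjusted p = 1.51e-07). NR1H4, the bile acid receptor FXR, and ANKS4B, a brush border scaffold, fell by 2.91 and 2.19 (SE 0.35 and 0.27, adjusted p = 6.36e-06 and 6.71e-06). APOH, a plasma glycoprotein, was not called at 20.4 ± 0.611 FPKM with TGF-β and 22.4 ± 0.768 FPKM in controls (adjusted p = 0.766).

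**Figure D4:**
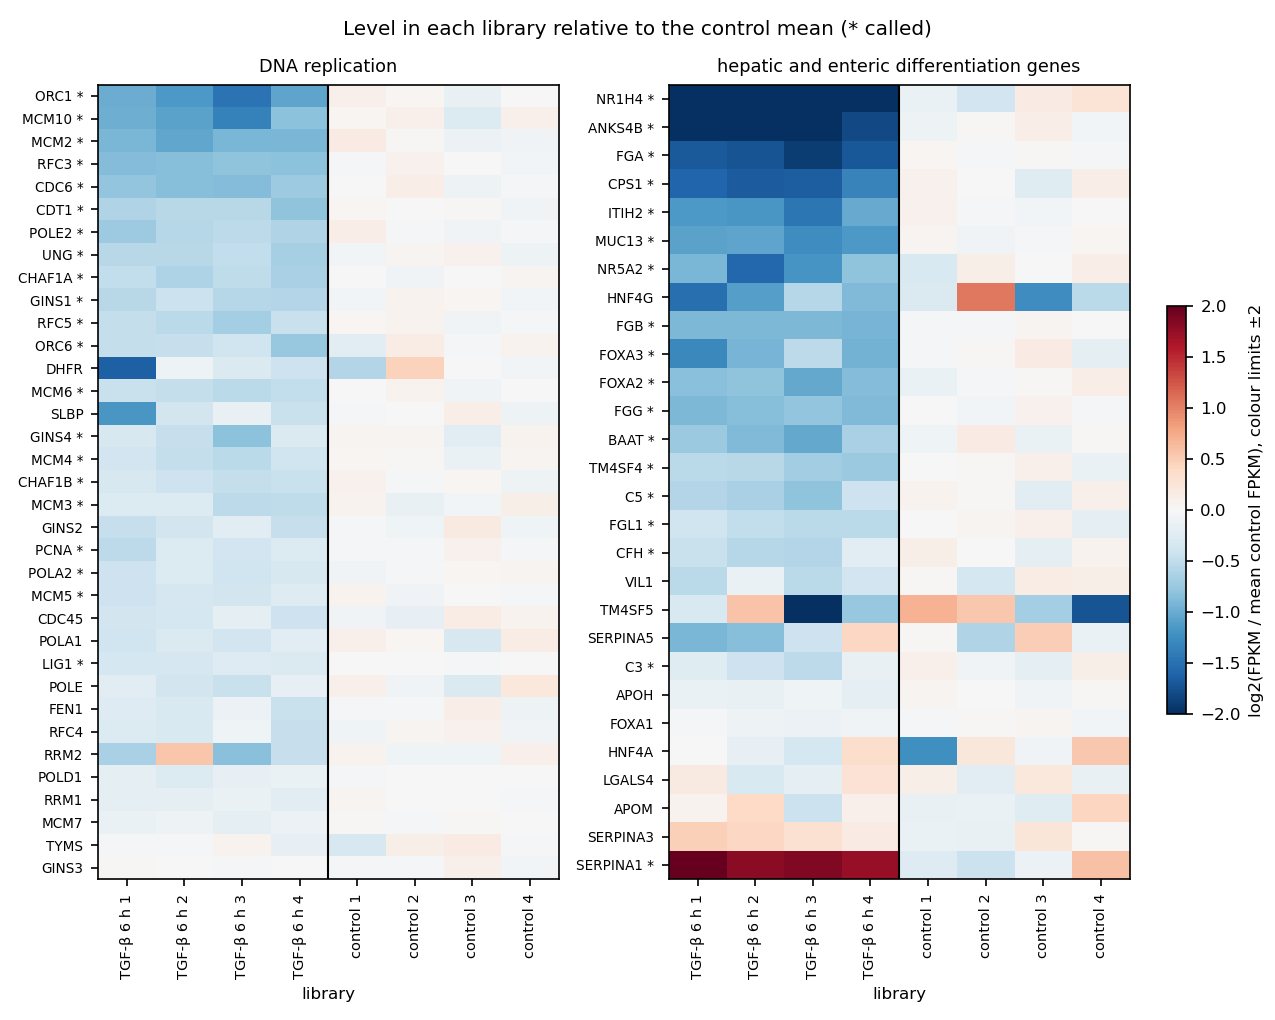
Level of each tested DNA replication gene (left) and of hepatic and enteric genes (right) in the 4 TGF-β 6 h libraries and the 4 control libraries, as log2 of FPKM over the mean control FPKM, with colours limited to 2 in either direction. Genes run from the largest fall at the top, and an asterisk marks a call. The TGF-β columns of ORC1, MCM10 and MCM2 and of NR1H4, ANKS4B and FGA are blue throughout, and those of SERPINA1 red.

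NRF2 is constantly active in A549 because the line carries a mutation in its inhibitor KEAP1. Of 28 NRF2 targets, 11 were lower and 1 higher. ABCC2, a drug and bilirubin conjugate exporter, had 21.5, 19.4, 18.1 and 24.5 FPKM with TGF-β and 61.6, 57.8, 46.7 and 62.4 FPKM in controls, a log2 change of -1.38 (SE 0.16, adjusted p = 2.41e-06). GCLC, the catalytic subunit for glutathione synthesis, had 17.1, 16.3, 16.3 and 17.1 FPKM with TGF-β and 33.3, 34.0, 31.2 and 34.7 FPKM in controls, a log2 change of -0.93 (SE 0.08, adjusted p = 1.42e-07). PGD, of the pentose phosphate pathway, and NQO1, a quinone reductase, fell by 0.50 and 0.31 (SE 0.09 and 0.06, adjusted p = 0.000546 and 0.00129). HMOX1, which encodes heme oxygenase 1, was the exception, with 115, 112, 126 and 109 FPKM with TGF-β and 53.6, 52.6, 59.4 and 50.3 FPKM in controls, a log2 change of 1.17 (SE 0.10, adjusted p = 7.61e-08). FTL, the ferritin light chain, was not called at 5131 ± 461 FPKM with TGF-β and 5484 ± 614 FPKM in controls (adjusted p = 0.935).

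Interferon-stimulated genes were lower in 12 and higher in 2 of 34 cases. IFIT2 had 0.220, 0.244, 0.287 and 0.236 FPKM with TGF-β and 1.01, 1.02, 0.778 and 1.08 FPKM in controls, a log2 change of -1.88 (SE 0.18, adjusted p = 3.38e-07), and IFIT1, of the same antiviral family, fell by 1.72 (SE 0.23, adjusted p = 2.00e-05). Of 16 circadian clock genes, 3 were higher and 5 lower. The repressor gene PER2 had 0.507, 0.574, 0.659 and 0.529 FPKM with TGF-β and 2.39, 2.02, 1.69 and 2.19 FPKM in controls, a log2 change of -1.80 (SE 0.14, adjusted p = 1.45e-08). The output factors HLF and DBP fell by 3.63 and 1.90 (SE 0.40 and 0.29, adjusted p = 1.68e-06 and 8.59e-05), whereas ARNTL, which encodes the activator BMAL1, had 6.26, 6.32, 5.41 and 6.75 FPKM with TGF-β and 2.67, 3.03, 2.74 and 2.84 FPKM in controls, a log2 change of 1.20 (SE 0.12, adjusted p = 6.13e-07). BHLHE40, a repressor of BMAL1 and CLOCK, rose by 1.36 (SE 0.09, adjusted p = 4.07e-09). The groups were separate in all 5 genes, and since the controls carry no collection time, clock phase and treatment cannot be told apart.

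To see what is late about the response, the 6 h libraries were set against those of 2 hours of TGF-β. At 6 hours 1019 genes (5.77%) were higher and 1391 (7.88%) lower than at 2 hours. The 2 comparisons share the 6 h libraries, so the values are given side by side. Of 22 feedback genes and SMAD targets 7 were higher and 5 lower at 6 than at 2 hours, with a median log2 difference of -0.01. CCN2 and JUNB were not called between the times: CCN2 had 16.2 ± 0.772, 114 ± 19.5 and 128 ± 5.10 FPKM in controls and at 2 and 6 hours, and JUNB 31.0 ± 2.83, 153 ± 23.9 and 157 ± 10.2 FPKM (SD, n = 4 each). The difference between 6 and 2 hours was 0.19 (SE 0.10) and 0.07 (SE 0.13) on the log2 scale, with adjusted p-values of 0.248 and 0.824.

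Of 30 collagen genes 10 were higher at 6 than at 2 hours and none lower, of 31 proteases and inhibitors 11 were higher and 5 lower, and of 28 other matrix and basement membrane genes 6 were higher and 6 lower. COL1A1 had 1.03 ± 0.142, 5.99 ± 0.341 and 16.3 ± 1.26 FPKM in controls and at 2 and 6 hours, and TIMP3 0.116 ± 0.0382, 0.701 ± 0.256 and 2.85 ± 0.180 FPKM (SD, n = 4 each). They were 1.47 (SE 0.11, adjusted p = 4.18e-08) and 2.06 (SE 0.26, adjusted p = 2.22e-05) higher on the log2 scale at 6 than at 2 hours. MMP1 differed by 2.80 and VIM by 0.73 (adjusted p = 8.42e-07 and 0.000108). RND1 and ANKRD1 were higher at 2 than at 6 hours: RND1 had 9.46 ± 0.467, 67.4 ± 15 and 34.1 ± 4.54 FPKM in controls and at 2 and 6 hours, -0.96 on the log2 scale between 6 and 2 hours (SE 0.15, adjusted p = 0.000248). ANKRD1, a YAP target, had 13.1 ± 0.631, 41.0 ± 6.99 and 12.3 ± 0.782 FPKM (6 against 2 hours: -1.71, SE 0.11, adjusted p = 9.23e-09).

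Several genes fell between 2 and 6 hours as well, FGA and PER2 mainly then and EHF both before and after 2 hours. EHF stood at 10.4 ± 1.34, 5.37 ± 1.69 and 1.07 ± 0.143 FPKM, FGA at 31.7 ± 0.844, 27.9 ± 0.944 and 9.45 ± 0.650 FPKM and PER2 at 2.07 ± 0.296, 2.16 ± 0.352 and 0.568 ± 0.0674 FPKM in controls and at 2 and 6 hours. The differences between 6 and 2 hours were -2.28, -1.53 and -1.89 (SE 0.19, 0.06 and 0.14, adjusted p = 2.55e-07, 1.82e-11 and 4.19e-08). FOS and SOX2, in contrast, were already low at 2 hours, at 2.29 ± 0.447 and 1.26 ± 0.380 FPKM, and the difference from 6 hours was not called (adjusted p = 0.846 and 0.0952). Of the 30 hepatic and enteric genes 17 were lower and 2 higher at 6 than at 2 hours, of 35 DNA replication genes 11 were lower and none higher, and of 30 mitosis genes 9 were higher and none lower. Replicate 1 of TGF-β at 2 hours enters these differences: a fit of the 2 TGF-β groups alone called 926 genes in place of 2410, and without that replicate 3105 were called.

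**Figure D5:**
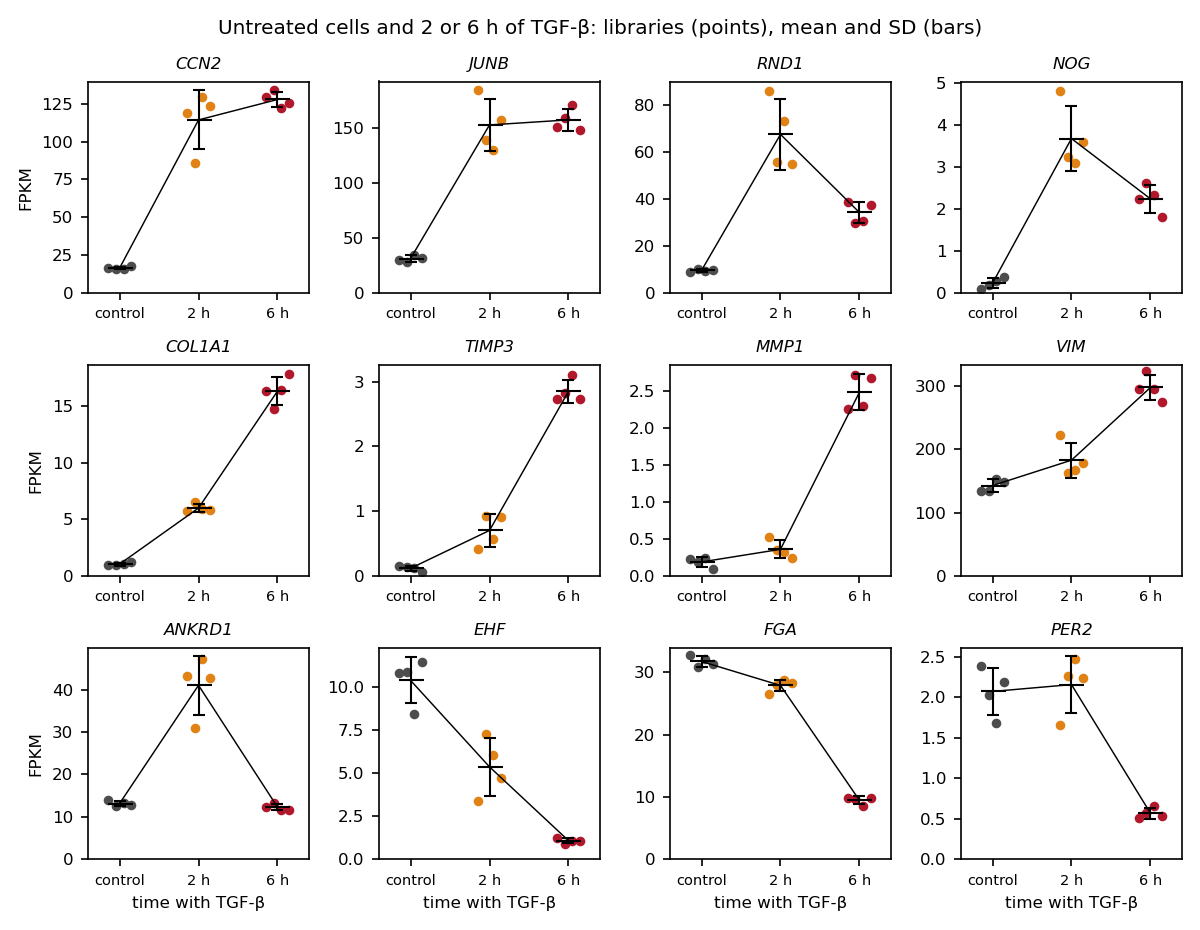
FPKM of 12 genes in untreated cells and after 2 and 6 hours of TGF-β, with each library as a point, the mean and SD of 4 libraries as bars and a line through the means. CCN2 and JUNB are near their 6 h level at 2 hours, ANKRD1 is high at 2 hours only, and FGA and PER2 fall after 2 hours. COL1A1, TIMP3, MMP1 and VIM gain more FPKM after 2 hours than before. On the log2 scale COL1A1 and TIMP3 rise more in the first 2 hours.

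Set against eATP at the same 6 hours, TGF-β gave 1750 genes (9.91%) that were higher and 1857 (10.5%) that were lower. COL1A1 had 16.3 ± 1.26 FPKM with TGF-β and 0.632 ± 0.0606 FPKM with eATP, PDGFB 29.8 ± 2.36 and 1.78 ± 0.122 FPKM, and CCN2 128 ± 5.10 and 10.8 ± 0.788 FPKM (SD, n = 4 each). The log2 differences were 4.71, 4.09 and 3.61 (adjusted p = 5.44e-15, 4.37e-15 and 4.84e-14). For COL1A1 and CCN2 the control means given above were higher than those with eATP, so these differences exceed the changes from controls. MMP1 was one of the genes for which no difference was called: 2.48 ± 0.240 FPKM with TGF-β and 1.84 ± 0.308 FPKM with eATP, a log2 difference of 0.46 (SE 0.24, adjusted p = 0.209). EDN2 and AREG were 6.10 and 3.23 lower on the log2 scale with TGF-β than with eATP (adjusted p = 4.03e-08 and 4.37e-15). Both differences are larger than the falls of these genes from controls given above. SOX8, an SRY-related factor, reached 1.25 ± 0.278 FPKM with TGF-β and 1.27 ± 0.0578 FPKM with eATP, against 0.166 ± 0.0444 FPKM in controls, and the difference between the treatments was not called (0.01 on the log2 scale, SE 0.19, adjusted p = 0.988).

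For some genes 1 or 2 libraries set the group value. TGFBR1, the type I receptor gene, had 13.8, 45.1, 44.3 and 12.6 FPKM with TGF-β and 12.9, 13.7, 4.12 and 6.87 FPKM in controls. It was called higher (log2(FC) 1.70, adjusted p = 0.0214), although the groups overlapped, and lost the call without control replicate 3 or 4 or TGF-β 6 h replicate 2 or 3 (adjusted p = 0.0639 to 0.0768). CLDN4, a claudin of tight junctions, had 5.95, 0.114, 6.16 and 5.64 FPKM with TGF-β and 0.267, 0.352, 0.549 and 0.336 FPKM in controls, so that replicate 2 lay below the controls and the other 3 far above them, a log2 change of 3.63 (SE 0.68, adjusted p = 0.000660). CLDN2, another claudin, was not called (adjusted p = 0.421): it had 39.5, 0.0468, 0.0146 and 0.0981 FPKM with TGF-β and 58.8, 0.0848, 55.9 and 56.5 FPKM in controls, near 0 in 3 TGF-β libraries and in control replicate 2. Without TGF-β 6 h replicate 1 its log2(FC) was -9.52 in place of -2.04 and it was called (adjusted p = 0.000117). PDLIM5, a scaffold of actin bundles, had 50.3, 47.1, 45.0 and 11.1 FPKM with TGF-β and 10.7, 10.5, 7.71 and 11.3 FPKM in controls, a log2 change of 2.01 (SE 0.37, adjusted p = 0.000616), with replicate 4 at the control level. LRRC8D, which helps form volume-regulated anion channels, had 1.19, 0.786, 0.8287 and 1.24 FPKM with TGF-β and 17.2, 18.8, 1.99 and 1.82 FPKM in controls, a log2 change of -3.22 (SE 0.85, adjusted p = 0.0106), and control replicates 1 and 2 were far above replicates 3 and 4. MYC had 7.64, 9.43, 19.8 and 19.6 FPKM with TGF-β and 14.2, 7.92, 23.2 and 1.49 FPKM in controls and was not called (adjusted p = 0.879).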

How the data were processed

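RNA of A549 cells was sequenced from stranded libraries of polyA-selected RNA. Read counts per gene, which the authors left unscaled, were deposited for every library. The FPKM values were deposited as well, scaled by the authors to gene length and library size. HISAT2, StringTie and edgeR stand in the submitters' processing notes, with no version, and the genome build was not given in the sources used here. Groups and replicate numbers came from the sample labels, which number 4 libraries per group, whereas the study's text states fewer replicates per condition.

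Genes with at least 0.1 FPKM in 4 or more of the 8 compared libraries were kept. Counts of all 20 libraries were fitted in one model of 5 group means (TMM, edgeR 4.0.16 quasi-likelihood F test, R 4.3.3, 15 residual degrees of freedom), and a two-sided p, adjusted by Benjamini and Hochberg over all genes tested, had to be under 0.05 for a call. The SE of a log2(FC) came from its size and the F statistic. The contrasts of TGF-β 6 h with controls, TGF-β 2 h and eATP 6 h came from this fit. It was checked on simulated data. For genes with many reads counting error alone is small at this depth, and the spread between libraries sets the precision. This does not hold for genes with few reads. Alternatives were other filters, scalings, thresholds and pseudocounts, limma 3.58.1, DESeq2 1.42.0, robust estimation, the compared groups alone and a replicate block. For each comparison, every library of the compared groups was also left out in turn. Replicate 1 of TGF-β at 2 hours was left out for the comparison with controls too, but not for that with eATP 6 h.

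Named genes were the 15 largest rises and 15 largest falls among called, non-overlapping genes whose higher group averaged 1 FPKM or more, the 10 largest rises and falls of mean FPKM among the same genes, and, for each of 40 lists, up to 6 called members with the largest change and up to 3 members not called with the highest FPKM. Some genes that met this rule are left out here, and genes outside it are said to be chosen after their values were seen. The members, lists and rule were chosen with earlier results of these data known. Of 1091 list genes 1087 matched the table. Promoter sequences were RefSeq's (GRCh38.p14), matched by symbol for 10726 of the 17651 genes. Sense and antisense genes are told apart only if strand was used in counting, which no source used here states, and counts of pseudogenes and overlapping genes are less certain.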

Additional observations from a re-analysis of the deposited data

Results flagged for a closer look

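Among the named genes, 346 groups of 4 libraries were looked at for a single library far from the others (a gap to the nearest other library above Dixon's 95% limit, as a share of the group's range), and 20 held one. Chance flags about 1 in 20 groups. Control replicate 3 was the one apart in 7 genes: CDH2 (13.6 FPKM, against 16.3 to 16.8 FPKM in the other controls), CXCL3 (24.8 against 15.8 to 16.7 FPKM), IGFBP4 (753 against 603 to 614 FPKM), KRT7 (310 against 244 to 248 FPKM), PCNA (373 against 345 to 348 FPKM), PDK4 (36.8 against 44.5 to 46.0 FPKM) and TNS1 (0.146 against 0.190 to 0.196 FPKM). It was the higher in 4 of these and the lower in 3. Among the other controls, replicate 1 was apart in SEMA7A (0.206 against 0.251 to 0.254 FPKM), replicate 2 in CLDN2 (0.0848 against 55.9 to 58.8 FPKM), and replicate 4 in MMP10 (0.786 against 0.507 to 0.529 FPKM) and PDGFB (1.51 against 1.85 to 1.90 FPKM).

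Of the TGF-β 6 h libraries, replicate 4 was apart in ADAM19 (26.0 FPKM, against 20.9 to 21.3 FPKM in the other 3), ITGB3 (1.84 against 1.09 to 1.19 FPKM), PDLIM5 (11.1 against 45.0 to 50.3 FPKM) and TAGLN (6.79 against 8.18 to 8.29 FPKM). Replicate 2 was apart in CLDN4 (0.114 against 5.64 to 6.16 FPKM), CNN1 (0.973 against 0.886 to 0.899 FPKM) and MCM2 (9.32 against 10.1 to 10.2 FPKM), replicate 1 in CLDN2 (39.5 against 0.0146 to 0.0981 FPKM), and replicate 3 in IER3 (393 against 322 to 330.0 FPKM). In CLDN2, CLDN4 and PDLIM5 the gap crossed the level of the other group, and in the other genes listed the groups did not overlap.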

How the results depend on the processing

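No named gene that was called in the main test or an alternative changed its direction between them. Of 156 named genes that were called by edgeR's quasi-likelihood test, 4 (AC117378, BMS1P7, CXCL8 and TGFBR1) lost the call under 1 or more alternatives and the others kept it under every one. TGFBR1 also lost it when the compared groups were fitted alone (adjusted p = 0.0614), and AC117378 and BMS1P7 without a filter (adjusted p = 0.0551 and 0.0654). Of 17 that were not called, CDH1 and CLDN2 were called under 1 or more, CDH1 also by DESeq2 (adjusted p = 0.0465).

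An adjusted p under 0.01 called 2185 genes against controls (1021 lower), 1414 against TGF-β 2 h and 2335 against eATP 6 h. A change of at least 2-fold beside the adjusted p under 0.05 left 1125 genes against controls (667 higher, 458 lower), 568 against TGF-β 2 h and 1183 against eATP 6 h. Fitting the compared groups alone left 926 against TGF-β 2 h, in place of 2410. Leaving out 1 library gave 2762 to 4250 genes against controls (1375 to 2073 higher, 1366 to 2177 lower), 1968 to 3105 against TGF-β 2 h and 3020 to 3398 against eATP 6 h. The upper ends of the counts against controls and TGF-β 2 h came from leaving out replicate 1 of TGF-β at 2 hours, an alternative chosen after seeing the data for the comparison with controls. The share of called genes that were higher was 50.8%, against 39.5% with library totals alone, 40.6% with limma on log2(FPKM + 0.1) and 40.9% on log2(FPKM + 1). It was 47.0% with upper quartile scaling and 52.2% with DESeq2 size factors. None of these alternatives uses the TMM factors, and library totals alone and limma on FPKM scale only by library size. The TMM factors were 0.971 to 0.980 in the TGF-β 6 h libraries and 1.02 to 1.03 in the controls. Why they differ between the groups was not tested.

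With the replicate number as a block, 1609 genes were higher and 1547 lower (3156 in all), 2275 were called against TGF-β 2 h and 3433 against eATP 6 h. The deviations of same-numbered TGF-β 6 h and control libraries correlated at 0.0902, 0.00439, 0.172 and 0.126 across 11228 genes, which are not independent. Libraries of unlike number correlated at -0.174 to 0.0875. The main test did not take the numbers as pairs, and whether libraries of the same number share a batch was not tested. Genes under 1 FPKM with few control reads are limited by depth, and the size of their change is uncertain. Across the alternatives the log2(FC) ran from 0.37 to 5.10 for INHBA, from -3.95 to -0.44 for HLF and from -3.17 to -0.62 for NR1H4.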

Other observations

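The lists that follow were not taken up above, and their counts stand beside 9.44% higher and 9.16% lower of all genes tested, with a median log2(FC) of -0.016. Of 25 genes for nucleotide receptors, ectonucleotidases and channels, 9 were higher and 6 lower after 6 hours of TGF-β, with a median of 0.10. P2RY2, a receptor for ATP and UTP, had 10.6, 10.2, 10.2 and 10.98 FPKM with TGF-β and 2.33, 2.78, 2.45 and 3.07 FPKM in controls, a log2 change of 2.05 (SE 0.14, adjusted p = 4.43e-09). The quasi-likelihood test of edgeR gave this and the other p-values. ADORA2B, an adenosine receptor, had 1.94, 1.83, 2.23 and 1.57 FPKM with TGF-β and 6.34, 5.44, 6.56 and 5.18 FPKM in controls, a log2 change of -1.56 (SE 0.12, adjusted p = 1.77e-08). The groups did not overlap. NT5E, the ectonucleotidase that makes adenosine from AMP, and LRRC8C, of volume-regulated anion channels, rose by 0.82 and 1.90 (SE 0.09 and 0.11, adjusted p = 3.29e-06 and 6.05e-10).

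Of 16 ephrins and Eph receptors 6 were higher and 1 lower, with a median of 0.18. EPHB2 had 13.2, 13.5, 12.3 and 14.4 FPKM with TGF-β and 5.01, 4.41, 4.33 and 5.46 FPKM in controls, a log2 change of 1.54 (SE 0.13, adjusted p = 5.06e-08), and EPHB3, a receptor of the same class, fell by 3.31 (SE 0.33, adjusted p = 5.48e-07). Across the alternatives the log2(FC) of EPHB3 ran from -3.56 to -0.45. Of 26 hyaluronan, proteoglycan and glycosylation genes 7 were higher and 2 lower, with a median of 0.14. SDC4, a heparan sulfate proteoglycan of focal adhesions, had 56.3, 55.9, 54.4 and 51.9 FPKM with TGF-β and 26.6, 27.1, 29.4 and 26.8 FPKM in controls, a log2 change of 1.06 (SE 0.08, adjusted p = 7.97e-09), and SDC1, of the same family, rose by 0.81 (SE 0.11, adjusted p = 2.15e-05). Of 32 genes of ATF4 and the unfolded protein response 9 were higher and none lower, with 7 to 11 higher and 0 to 2 lower in the alternatives, and the median was 0.10. HERPUD1, which serves degradation at the endoplasmic reticulum, had 10.7, 12.5, 13.2 and 11.7 FPKM with TGF-β and 5.95, 5.88, 5.91 and 6.00 FPKM in controls, a log2 change of 1.09 (SE 0.09, adjusted p = 5.79e-08), and CHAC1, an ATF4 target that breaks down glutathione, rose by 1.42 (SE 0.24, adjusted p = 0.000277). In the glycolysis and hypoxia list, 5 of 33 were higher and 7 lower, with a median of 0.04, and 8 were higher and 8 lower without replicate 1 of TGF-β at 2 hours. NDRG1 rose by 1.03 and ADM, for adrenomedullin, fell by 1.22 (SE 0.09 and 0.24, adjusted p = 8.89e-08 and 0.00126), while GAPDH was not called at 1528 ± 66.6 FPKM with TGF-β and 1627 ± 83.3 FPKM in controls (SD, n = 4 each, adjusted p = 0.929).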
